A study of Mus musculus with 36 samples.

Results

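Prostaglandins are made from arachidonic acid, and 10 genes of their synthesis, breakdown and sensing were followed here in mouse knee cartilage. The genes were fixed by name: Pla2g4a, Ptgs1, Ptgs2, Ptges, Ptges2, Ptges3, Ptgis, Hpgd, Ptger2 and Ptger4. They hold 11 of the 30048 RefSeq transcripts counted in every RNA library, because Ptger4 has 2, and for each gene the transcript with the highest mean count was taken. All 10 passed edgeR's filter on low counts in every comparison.

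Male C57BL/6J mice had the medial meniscus of the right knee destabilized at 12 weeks of age (DMM, which leads to osteoarthritis after joint injury), and the unoperated left knee of the same animals served as control. Cartilage was microdissected from tibial plateaus and femoral condyles at 4 or 12 weeks after surgery, and 3 knees were pooled for each library. There were 3 control and 3 DMM RNA libraries per time point, with 27706547 to 62737656 counted reads each, and DNA of other mice gave 3 control and 3 DMM samples per time point for methylation. No sham-operated or naive knees are among the samples, and time after surgery, age and any batch of preparation cannot be told apart.

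The pathway runs from membrane to receptor. Pla2g4a, cytosolic phospholipase A2, releases arachidonic acid from membrane lipids, and the cyclooxygenases turn it into prostaglandin H2. Ptgs1 (COX-1) is known as the steadily expressed cyclooxygenase and Ptgs2 (COX-2) as the one that inflammatory and mechanical stimuli induce, with prostaglandin E2 (PGE2) a well-known mediator of pain and matrix turnover in joints. PGE2 is made by the synthases Ptges, Ptges2 and Ptges3, prostacyclin by Ptgis, and Hpgd starts their breakdown. Ptger2 and Ptger4 encode EP2 and EP4, the PGE2 receptors that raise cyclic AMP.

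Pla2g4a and Ptgs2 are neighbours on chromosome 1 (GRCm38.p6, RefSeq). Pla2g4a lies at chr1:149829618-149961290 on the minus strand, Ptgs2 at chr1:150100031-150108234 on the plus strand, and 138740 bp separate them. Ptgs1 (chr2:36230426-36252272, plus strand) and Ptges (chr2:30889471-30903297, minus strand) are among 4 members on chromosome 2. The 250 bases upstream of the RefSeq transcript start are shown for Ptgs2, Ptgs1 and Ptges. The results turn on the 2 cyclooxygenases, and Ptges alone among the members measured had a partly methylated window around its start. Capitals mark matches to the motifs named after the sequences.
Ptgs2, chr1:150099781-150100030, plus strand: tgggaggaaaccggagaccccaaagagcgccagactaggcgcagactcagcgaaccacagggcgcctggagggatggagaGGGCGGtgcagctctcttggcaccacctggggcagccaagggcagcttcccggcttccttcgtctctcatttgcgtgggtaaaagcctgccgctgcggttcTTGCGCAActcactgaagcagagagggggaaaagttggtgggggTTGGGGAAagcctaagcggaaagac
Ptgs1, chr2:36230176-36230425, plus strand: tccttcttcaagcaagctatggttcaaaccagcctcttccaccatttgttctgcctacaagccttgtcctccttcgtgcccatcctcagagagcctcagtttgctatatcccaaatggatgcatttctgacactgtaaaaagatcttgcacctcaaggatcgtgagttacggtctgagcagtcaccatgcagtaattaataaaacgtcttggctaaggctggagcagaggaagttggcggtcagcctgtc
Ptges, chr2:30903298-30903547, minus strand: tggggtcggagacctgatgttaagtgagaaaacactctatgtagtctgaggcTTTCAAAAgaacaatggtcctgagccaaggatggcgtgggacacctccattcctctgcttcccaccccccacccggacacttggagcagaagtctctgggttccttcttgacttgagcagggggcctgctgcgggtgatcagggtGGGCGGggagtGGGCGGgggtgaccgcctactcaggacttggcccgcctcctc

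Each motif was searched on both strands from 250 bases before to 50 bases after the start, in 32851 RefSeq promoters of this length. The motifs searched were the AT-rich box TATAAA, the E-box CACGTG, the cyclic AMP response element TGACGTCA with its shorter part TGACG, the AP-1 motif TGANTCA, the GC-rich box GGGCGG, the promoter element CCAAT, the loose C/EBP pattern TTNNGNAA and the NF-kB consensus. Ptgs2 held 2 TTNNGNAA matches, at -69 to -62 and -25 to -18, and 1 GGGCGG at -170 to -165, patterns that 40.7% and 35.7% of all windows contain. Just inside its transcript it held TGACG at 14 to 18 and, overlapping it, CACGTG at 17 to 22, found in 20.8% and 7.15% of windows. Ptgs1 held none of the motifs, and Ptges held 2 GGGCGG and 1 TTNNGNAA. CpG dinucleotides numbered 16 in the Ptgs2 window, 6 in that of Ptgs1 and 10 in that of Ptges, where the median window had 7. The 3′ UTRs of the cyclooxygenases differ as well. ATTTA, the core of AU-rich elements that are known to shorten mRNA life, occurs 14 times in the 2452 nt of the Ptgs2 3′ UTR. It occurs 0 times in the 921 nt of Ptgs1. Of 18717 genes 1.89% have at least as many as Ptgs2, a count not adjusted for length. Per kb of 3′ UTR, Pla2g4a had 9.03, Ptgs2 5.71, Hpgd 4.76, Ptger4 4.06, Ptges3 3.42 and Ptger2 3.29. Ptges, Ptges2 and Ptgis had 0. Such matches are letters in a window and show no binding or decay.

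The libraries held RNA of several tissues. All 10 chondrocyte markers (Col2a1, Acan and others) were detected in every group, with a summed level of 2048 to 7060 CPM (counts scaled to library size with TMM factors) per library. Genes of other cells were also abundant, with summed levels of 8879 to 42051 CPM for 8 neutrophil genes, 2039 to 6557 CPM for 7 macrophage genes and 77.6 to 19029 CPM for 8 skeletal muscle genes. At 4 weeks all 8 muscle genes were lower in every DMM library (437 to 3111 CPM in sum) than in any control library (5232 to 19029 CPM). In such bulk tissue, fewer cells of a type and less RNA per cell cannot be told apart.

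Per kb of transcript, the scale on which genes can be compared, prostacyclin synthase led the members and COX-2 stood near their low end. Other genes of the pathway were not ranked. Ptgis averaged 109 ± 32.8 CPM per kb (SD, n = 3) in the 4-week controls and was above every other member in each group, with no overlap with the next gene. Ptgs1 and Hpgd followed. In the 4-week controls their levels, 31.4 and 34.5 CPM per kb, overlapped. Hpgd was above Ptgs1 in the 4-week DMM knees (50.05 and 25.05 CPM per kb, no overlap), and Ptgs1 was above Hpgd in all 12-week libraries. Ptges3, Ptges2 and Pla2g4a formed a middle range, with group means between 10.6 and 17.4 CPM per kb. Ptges, Ptger4, Ptgs2 and Ptger2 formed the low end, with group means from 1.05 to 4.56 CPM per kb.

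**Figure D1:**
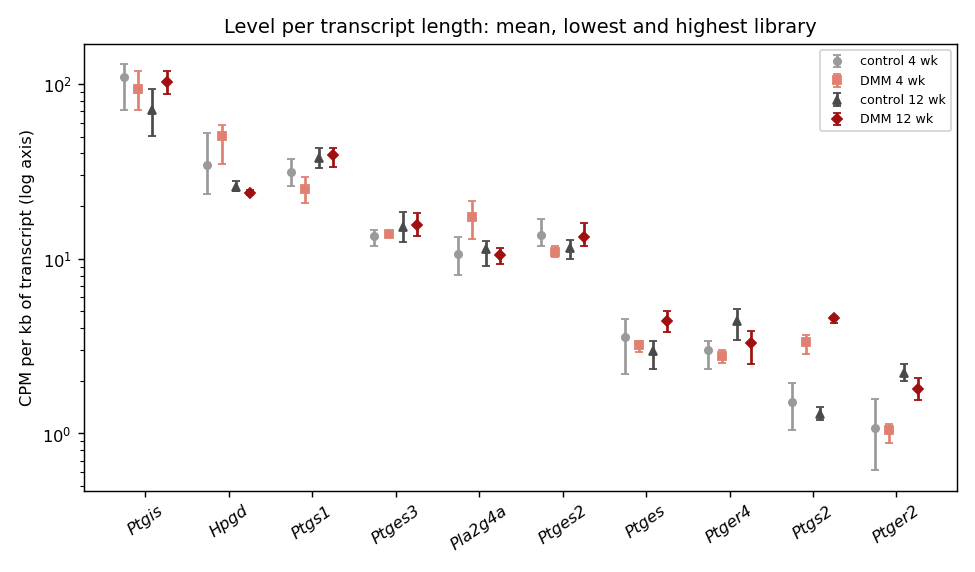
Level of each gene in CPM per kb of transcript (log axis), with the mean (symbol) and the lowest and highest of 3 libraries (bars) per group. Ptgis is highest in all 4 groups, and Ptgs2 moves from 1.29 in 12-week controls to 4.56 in 12-week DMM knees.

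Within that order Ptgs2 changed places with the limb. It was last of 10 in the 12-week controls (1.29 ± 0.118 CPM per kb, SD, n = 3) and below Ptger2 in every library. In the 12-week DMM knees it was seventh, at 4.56 ± 0.244 CPM per kb, where its range overlapped that of Ptges.

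Ptgs2 was the one member that rose in DMM knees by the test used. At 4 weeks its level was 8.69, 6.94 and 4.65 CPM in the controls and 15.5, 16.3 and 12.7 CPM in the DMM libraries. At 12 weeks it was 5.36, 5.51 and 6.33 CPM in the controls and 21.1, 20.9 and 19.1 CPM in DMM. The groups did not overlap at either time point, the lowest DMM library lying 1.47 times above the highest control at 4 weeks and 3.01 times at 12 weeks. Non-overlap was common at this size: 21.2% of 21140 transcripts showed it at 4 weeks and 18.8% of 21010 at 12 weeks.

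On the log2 scale Ptgs2 was 1.83 ± 0.15 (SE) higher in DMM at 12 weeks, with a Benjamini-Hochberg adjusted p of 0.0329 by edgeR's quasi-likelihood test over all transcripts. It was the only transcript called there, 0.00476% of those tested. At 4 weeks the difference was 1.14 ± 0.26 and was not called by edgeR (unadjusted p = 0.0025, adjusted p = 0.246), a comparison that called 0.0757% of transcripts. DESeq2 called Ptgs2 at both time points, with adjusted p of 0.00726 at 4 weeks, where it called 3.44% of transcripts, and 2.57e-23 at 12 weeks, where it called 4.24%. The edgeR call at 12 weeks was lost without control replicate 1 (adjusted p = 0.382), control replicate 3 (0.138), DMM replicate 1 (0.332) or DMM replicate 2 (0.255), while the log2 difference stayed between 1.76 and 1.89 when each library was left out. The call held without control replicate 2, where edgeR called 860 of 21261 transcripts. It also held without DMM replicate 3, where edgeR called 102 of 21213.

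Some osteoblast markers moved with the limb as well, where 21.2% of all transcripts at 4 weeks and 18.8% at 12 weeks did not overlap. The summed level of 7 osteoblast genes, of which Ibsp was the most abundant in every library, was 3528 to 5709 CPM in 4-week controls and 6905 to 8011 CPM in 4-week DMM libraries, and 2131 to 3472 CPM against 4025 to 5859 CPM at 12 weeks. Higher in all DMM libraries were Bglap2, Ibsp and Phex at 4 weeks and Ibsp, Alpl and Sp7 at 12 weeks, 3 of 7 in each. Bglap overlapped in both weeks, with 533, 487 and 233 CPM in 12-week controls and 353, 394 and 342 CPM in DMM. The chondrocyte sum was 2048 to 4484 CPM in 12-week controls and 4740 to 7060 CPM in 12-week DMM, with 1 of 10 genes higher in all DMM libraries. At 4 weeks it was 2725 to 6121 CPM in controls and 2451 to 4940 CPM in DMM, with 1 of 10 genes, Cnmd, lower in all DMM libraries. Of 8 synovial fibroblast genes, 4 were higher and 1 lower in all DMM libraries at 4 weeks, and 3 higher and 1 lower at 12 weeks. Of 7 macrophage genes 4 were lower in all DMM libraries at 12 weeks (3481 to 4163 CPM in sum, against 4284 to 5802 CPM), and of 5 erythroid genes 2 were. Of 6 endothelial genes 2 were higher in all DMM libraries at 4 weeks. None of the neutrophil, platelet, mast cell and adipocyte genes separated the limbs in either week. The part of these markers in the Ptgs2 difference was not tested. The antisense neighbour Ptgs2os, whose transcript starts upstream of Ptgs2 and shares no exon with it, had 1 to 12 reads per library. No member shared an exon with another gene of the count table.

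**Figure D2:**
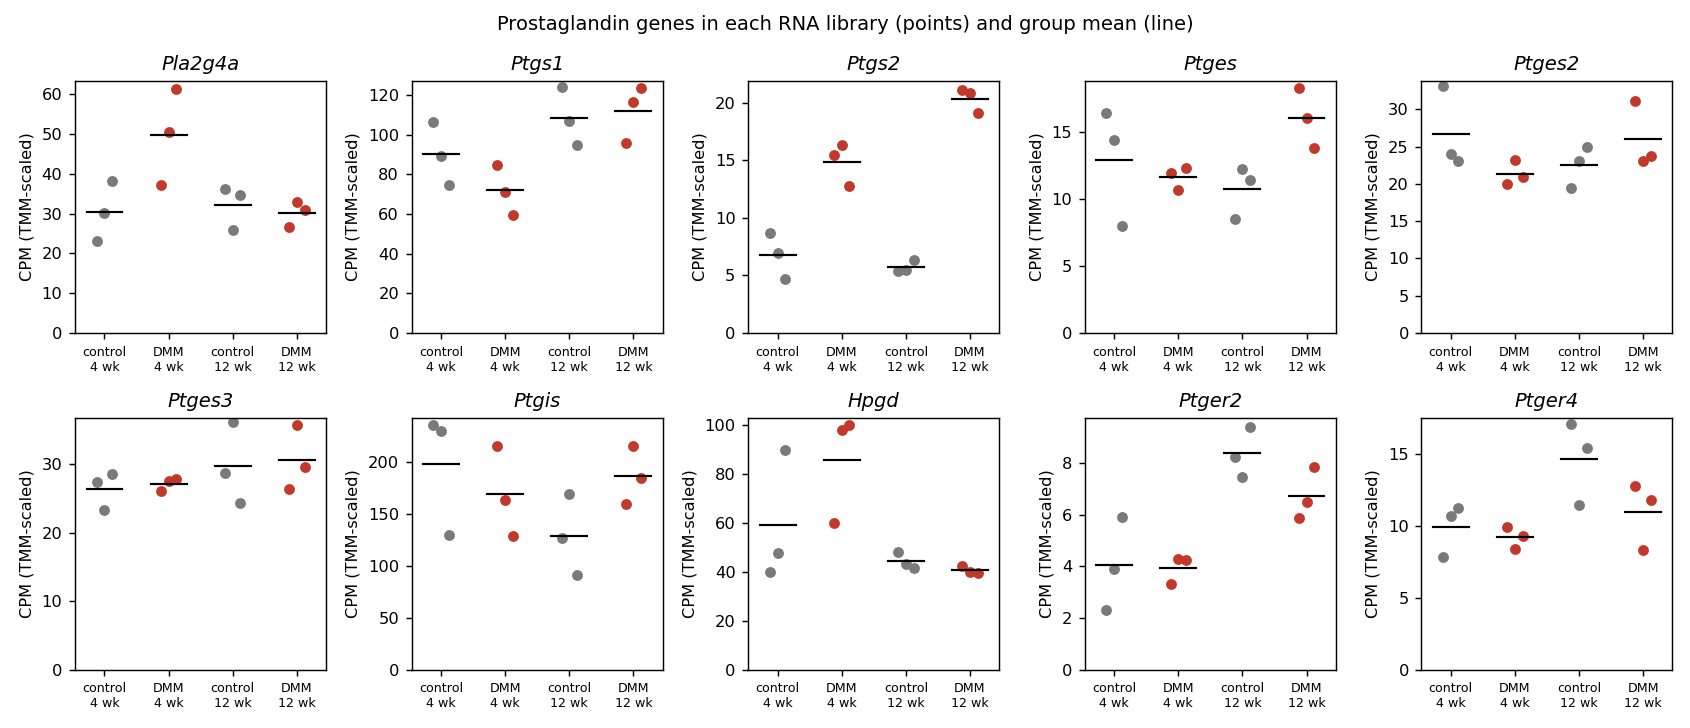
CPM of each gene in each of 12 RNA libraries (points, linear axis from 0) with the group mean (line), control in grey and DMM in red. Ptgs2 is separated by limb at both time points, Ptges at 12 weeks only, and the remaining 8 genes overlap between limbs in both weeks. Of all transcripts 21.2% at 4 weeks and 18.8% at 12 weeks did not overlap between limbs.

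Ptgs1, the other cyclooxygenase, gave no such separation. It measured 107, 89.1 and 74.7 CPM in 4-week controls and 84.6, 71.3 and 59.6 CPM in 4-week DMM. After 12 weeks its level was 124, 107 and 94.9 CPM in controls and 95.7, 117 and 123 CPM in DMM. Its ranges overlapped between limbs at both time points, with log2 differences of -0.33 ± 0.21 at 4 weeks (adjusted p = 0.47, edgeR) and 0.05 ± 0.15 at 12 weeks (adjusted p = 0.887).

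The balance of the 2 enzymes was taken within each library, which makes it independent of the scaling between libraries. Length-scaled Ptgs1 exceeded Ptgs2 19.1, 19.98 and 24.97 times in the 4-week controls and 8.49, 6.81 and 7.28 times in the 4-week DMM libraries. At 12 weeks the excess was 35.9, 30.1 and 23.3 times in controls and 7.06, 8.69 and 10.1 times in DMM. Ptgs1 thus stayed the more abundant transcript in all 12 libraries, and every DMM library had a higher share of Ptgs2 than every control library. The log2 ratio of Ptgs2 to Ptgs1 was 1.64 higher in DMM over both weeks (two-sided exact permutation test within weeks, p = 0.005, the smallest its 400 arrangements can give). Within a week the differences were 1.4996 at 4 and 1.78 at 12 weeks, each with p = 0.1 by the exact permutation test, the smallest that 3 libraries against 3 allow. Since Ptgs2 was already known to differ between limbs in these libraries, the ratio is no independent evidence of that.

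**Figure D3:**
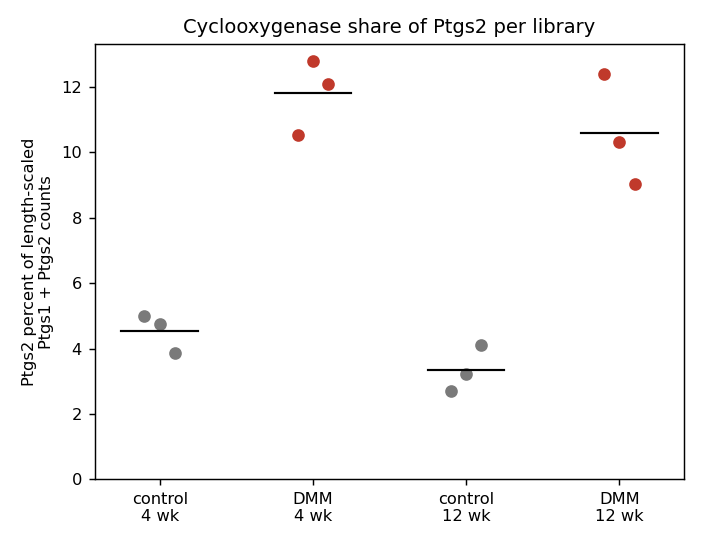
Ptgs2 as a percentage of the length-scaled counts of Ptgs1 and Ptgs2 in each library (points) with the group mean (line). Controls lie between 2.71% and 4.98%, and DMM libraries between 9.04% and 12.8%.

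Upstream of the cyclooxygenases, Pla2g4a was higher in 4-week DMM knees on average but overlapped. It measured 23.1, 30.1 and 38.2 CPM in controls and 37.1, 50.5 and 61.4 CPM in DMM, a log2 difference of 0.70 ± 0.26 that was not called by edgeR (unadjusted p = 0.0272, adjusted p = 0.333). The 12-week levels were 36.1, 26.0 and 34.7 CPM in controls and 26.7, 32.9 and 30.9 CPM in DMM, a log2 difference of -0.09 ± 0.16. One DMM library at 4 weeks (replicate 1) lay within the control range.

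Among the PGE2 synthases, Ptges, the microsomal enzyme known to be induced together with Ptgs2, was the single one whose limbs separated, and only at 12 weeks. It measured 8.53, 12.3 and 11.4 CPM in 12-week controls and 18.3, 16.1 and 13.8 CPM in DMM. At that time point 18.8% of all transcripts did not overlap between limbs. The log2 difference was 0.59 ± 0.19 (unadjusted p = 0.0156, adjusted p = 0.254, edgeR), so Ptges was not called. At 4 weeks it measured 16.4, 14.5 and 8.003 CPM in controls against 12.0, 10.7 and 12.3 CPM in DMM, with all DMM libraries inside the control range.

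Ptges2 and Ptges3, the synthases known as constitutive, stayed within a narrow band. Ptges2 ranged from 19.5 to 33.1 CPM over the 12 libraries and Ptges3 from 23.2 to 36.1 CPM. Their log2 differences between limbs lay between -0.33 and 0.22 in both weeks, with adjusted p of 0.449 or more by edgeR. RefSeq lists a pseudogene of Ptges3, Ptges3-ps, so reads of Ptges3 may be split between near-identical copies and its counts are less certain.

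Ptgis, the prostacyclin synthase, was 236, 230 and 130 CPM in 4-week controls and 216, 164 and 129 CPM in 4-week DMM. The 12-week levels were 127, 170 and 91.8 CPM in controls and 159, 215 and 185 CPM in DMM, with 1 DMM library inside the control range. The 12-week log2 difference was 0.53 ± 0.23 (unadjusted p = 0.0463, adjusted p = 0.299, edgeR), and the 4-week one was -0.22 ± 0.30.

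Hpgd, the 15-hydroxyprostaglandin dehydrogenase, varied among the 4-week pools. It was 40.1, 48.0 and 90.0 CPM in 4-week controls and 59.9, 98.1 and 100.1 CPM in DMM, where the third control library lay inside the DMM range. Its 12-week levels were 48.2, 43.3 and 41.7 CPM in controls and 42.5, 39.9 and 39.7 CPM in DMM. The log2 differences of 0.52 ± 0.34 and -0.12 ± 0.12 were not called by edgeR (adjusted p = 0.472 and 0.62).

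Ptger2 and Ptger4 were low, and their log2 differences lay below 0 in both weeks without a call. Without single libraries the 4-week difference of Ptger2 ranged from -0.316 to 0.335. Ptger4 was 17.1, 11.5 and 15.5 CPM in 12-week controls and 12.8, 8.34 and 11.8 CPM in DMM, a log2 difference of -0.40 ± 0.22 (adjusted p = 0.387, edgeR). Ptger2 was 8.25, 7.48 and 9.40 CPM in 12-week controls and 5.88, 6.51 and 7.85 CPM in DMM, a log2 difference of -0.31 ± 0.18 (adjusted p = 0.409). Both overlapped between limbs in both weeks. At 4 weeks Ptger2 was 2.32, 3.89 and 5.92 CPM in controls and 3.32, 4.28 and 4.24 CPM in DMM, and Ptger4 was 7.82, 10.7 and 11.3 CPM in controls and 9.96, 8.43 and 9.30 CPM in DMM.

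**Figure D4:**
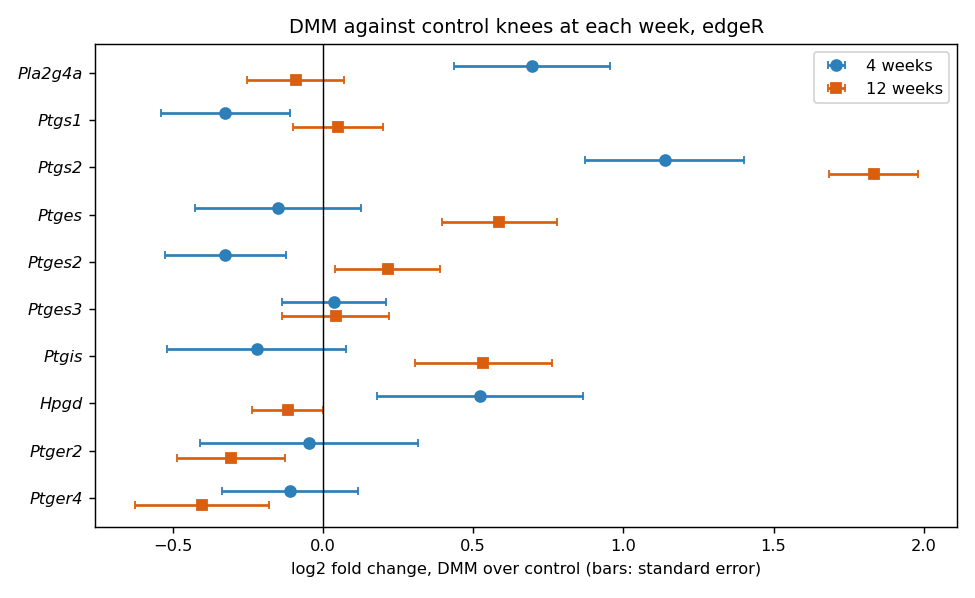
Log2 fold change of DMM over control (edgeR) with its standard error for each gene at 4 weeks (circles) and 12 weeks (squares). Ptgs2 lies at 1.14 and 1.83, and every other gene lies between -0.40 and 0.70.

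In all, 0 of 10 members were called at 4 weeks and 1 at 12 weeks, with 2 and 3 at an unadjusted p under 0.05, a threshold that 13.7% and 16.3% of all transcripts passed. The test of whether the limb difference itself changed between time points called none of the 10 members and 0% of 21618 transcripts by edgeR, with 2656 transcripts (12.3%) at an unadjusted p under 0.05. DESeq2 called 16 transcripts (0.0613%) and none of the members. By edgeR 2 members had an unadjusted p under 0.05, Pla2g4a (-0.80 ± 0.32 on the log2 scale) and Ptgs2 (0.69 ± 0.30), both with an adjusted p of 0.405.

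In DMM knees 3 members were called by edgeR at 12 against 4 weeks, where 23.6% of all transcripts were. Hpgd fell by 1.08 on the log2 scale (SE 0.28, adjusted p = 0.0182) and Pla2g4a fell by 0.72 (SE 0.23, adjusted p = 0.0376), while Ptgs1 rose by 0.64 (SE 0.19, adjusted p = 0.0299). Each of the 3 calls was lost when DMM 4-week replicate 2 or 3, or DMM 12-week replicate 2 or 3, was left out, and that of Pla2g4a also without DMM 12-week replicate 1 or control 4-week replicate 2. Without these libraries the adjusted p by edgeR reached 0.0795 for Hpgd, 0.129 for Ptgs1 and 0.152 for Pla2g4a. Cell markers moved over the same interval, in which 42.3% of all transcripts did not overlap between the DMM libraries of the 2 time points. In DMM, 6 of 7 macrophage genes and 3 of 5 adipocyte genes were lower in all 12-week libraries and 3 of 8 neutrophil genes were higher. Of 8 synovial fibroblast genes 5 were lower and 2 higher, of 7 osteoblast genes 2 lower and 2 higher, and of 6 endothelial genes 2 lower. Of 5 platelet genes 2 were higher, of 10 chondrocyte genes 2 and of 5 erythroid genes 1, and no muscle or mast cell gene separated the time points. The summed synovial fibroblast level was 2972 to 6342 CPM at 4 weeks and 8394 to 10302 CPM at 12 weeks. Most of that sum was Col1a1 and Gsn, of which Col1a1 was higher in all 12-week libraries and Gsn overlapped. Pi16 was the other gene that was higher, and the 5 lower ones were Pdpn, Thy1, Pdgfra, Dpp4 and Clec3b. The summed neutrophil level went from 12978 to 19315 CPM at 4 weeks to 20092 to 32787 CPM at 12 weeks. The summed macrophage level was 3054 to 6557 CPM at 4 weeks and 3481 to 4163 CPM at 12 weeks, and that of the adipocyte genes 282 to 472 CPM and 124 to 187 CPM. The part of these markers in the 3 changes was not tested.

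In control knees no member was called between time points by edgeR, where 5.69% of transcripts were, with 2 members at an unadjusted p under 0.05, which 25.4% of transcripts passed. Ptger2 was closest, at 1.05 ± 0.29 higher on the log2 scale at 12 weeks (adjusted p = 0.0544), and its 3 control libraries at 12 weeks lay above the 3 at 4 weeks, a comparison in which 27.2% of all transcripts did not overlap. DESeq2 called it (adjusted p = 0.0121) among 13.9% of transcripts, and so did edgeR without control 4-week replicate 3 (adjusted p = 0.00466), which was the highest of its group. Without the same library edgeR also called Ptgis, at -0.88 on the log2 scale (adjusted p = 0.0324), where all libraries gave -0.62 ± 0.29 (adjusted p = 0.199). Ptger4 was 0.56 ± 0.22 higher (unadjusted p = 0.0245, adjusted p = 0.136, edgeR). Over the same interval 4 of 8 neutrophil genes were higher in all 12-week control libraries, and their summed level was 8879 to 25482 CPM at 4 weeks and 24937 to 42051 CPM at 12 weeks. Of 5 platelet genes 2 were higher and of 6 endothelial genes 1. Of 8 synovial fibroblast genes 2 were higher and 4 lower, of 5 mast cell genes 1 higher and 1 lower, and 1 chondrocyte, 1 osteoblast and 1 muscle gene were lower. The part of these markers in the Ptger2 difference was not tested.

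The rest of the prostanoid pathway gave no call between limbs in either week by edgeR, in 14 phospholipases, 5 further synthases, 3 reductases of prostaglandin breakdown, 2 transporters and 7 further receptors tested at 4 weeks and 8 at 12 weeks. Median log2 differences at 4 weeks were -0.07, 0.19, 0.34, -0.01 and 0.12 in that order, and -0.04, -0.15, -0.10, -0.67 and -0.14 at 12 weeks, against -0.03 and 0.01 over all transcripts. At an unadjusted p under 0.05 stood 7 of 31 genes at 4 weeks and 6 of 32 at 12 weeks, beside 13.7% and 16.3% of all transcripts. DESeq2 called Pla2g3, Pla2g4e, Pla2g5 and Ptgfr at 4 weeks and Pla2g2e at 12 weeks, where it called 3.44% and 4.24% of all transcripts. Pla2g5, a secreted phospholipase A2, did not overlap between limbs in either week, beside 21.2% and 18.8% of all transcripts at 4 and 12 weeks. It measured 8.34, 11.2 and 9.42 CPM in 4-week controls and 18.3, 18.1 and 14.7 CPM in DMM, and 7.94, 10.4 and 6.69 CPM against 13.5, 13.8 and 12.1 CPM at 12 weeks. Its log2 differences of 0.82 ± 0.21 and 0.66 ± 0.19 had adjusted p of 0.252 and 0.227.

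Ptgfr, the prostaglandin F receptor, separated the limbs at 4 weeks, as 21.2% of all transcripts did, and not at 12 weeks. It measured 8.13, 11.3 and 7.28 CPM in controls and 16.5, 27.8 and 46.6 CPM in DMM, a log2 difference of 1.76 ± 0.37 that edgeR did not call (unadjusted p = 0.00139, adjusted p = 0.218). The 12-week levels were 7.77, 2.96 and 8.62 CPM in controls against 8.05, 7.00 and 5.85 CPM in DMM. Ptger1, the EP1 receptor, was 9.62, 10.1 and 9.97 CPM in 12-week controls and 13.8, 12.6 and 13.2 CPM in DMM (log2 difference 0.42 ± 0.14, adjusted p = 0.254 by edgeR). At 4 weeks the limbs overlapped and the difference had the opposite sign, with 14.5, 17.6 and 10.9 CPM in controls and 13.6, 10.2 and 8.08 CPM in DMM (-0.43 ± 0.27, adjusted p = 0.457 by edgeR). The other genes with the smallest unadjusted p were phospholipases of low level. Pla2g4e (-4.19 ± 0.71, adjusted p = 0.18) and Pla2g3 (-2.59 ± 0.57, adjusted p = 0.226) had negative log2 differences at 4 weeks and stayed below 4 CPM in all libraries, and at 12 weeks their differences were 0.04 ± 1.44 and -0.74 ± 0.65. Pla2g2e had one of 2.58 ± 0.64 (adjusted p = 0.211) at 12 weeks and 1.53 ± 0.69 (adjusted p = 0.373) at 4 weeks. Pla2g2d had one of -1.04 ± 0.37 (adjusted p = 0.265) at 12 weeks and of the opposite sign, 0.44 ± 0.38 (adjusted p = 0.571), at 4 weeks, with adjusted p by edgeR. Pla2g4e measured 3.82, 1.58 and 1.23 CPM in 4-week controls and 0.233, 0.0906 and 0.0305 CPM in DMM. All 8 skeletal muscle genes were also lower in all DMM libraries at 4 weeks. The part of muscle in the Pla2g4e difference was not tested.

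Further lists cover a neighbouring branch, inducers and targets of the pathway, and edgeR called none of their genes between limbs, with 10 of 33 at an unadjusted p under 0.05 at 4 weeks and 4 of 33 at 12 weeks, beside 13.7% and 16.3% of all transcripts. DESeq2 called Alox15 and Nr4a1 at 4 weeks and Il1rn at 12 weeks, among 3.44% and 4.24% of all transcripts. The 10 tested genes of the leukotriene and lipoxygenase branch had a median log2 difference of -0.10 at 4 and -0.37 at 12 weeks. The 13 genes of inflammatory signalling known to act on Ptgs2 or to be induced beside it had medians of 0.05 and -0.07. Among them Il1b measured 4.76, 10.9 and 19.6 CPM in 4-week controls and 5.04, 10.1 and 13.5 CPM in DMM, and 16.5, 18.6 and 21.9 CPM against 20.1, 16.3 and 16.0 CPM at 12 weeks, so Il1b, which encodes interleukin-1 beta, overlapped between limbs in both weeks. Of 10 tested genes known to respond to cyclic AMP and CREB, the route of EP2 and EP4, 9 had a log2 difference below 0 at 4 weeks (median -0.55) and 9 one above 0 at 12 weeks (median 0.33). Of all transcripts tested, 11096 of 21140 were below 0 at 4 weeks and 10813 of 21010 above 0 at 12 weeks. The part of EP2 and EP4 in the differences of these 10 genes was not tested.

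Over the 12 libraries, Ptgs2 was set beside the 15158 genes with enough reads, with the correlation given as a measure of likeness only. Among the genes closest to it were Csn3 (Pearson r = 0.965, Spearman rho = 0.972), Fmod (0.946 and 0.965), Zmat3 (0.922 and 0.916), Mir100hg (0.904 and 0.902), Bdkrb1 (0.897 and 0.79), Crnde (0.89 and 0.874) and Tnn (0.879 and 0.888). Csn3 lay near the floor, with mean log2 CPM of -2.06 and -0.484 in 4-week controls and DMM and -2.67 and 0.389 at 12 weeks. Bdkrb1 was low too, with group means from -1.49 to 0.522. Fmod encodes fibromodulin, a collagen-binding matrix proteoglycan, and Bdkrb1 encodes the bradykinin B1 receptor. The 12 points share libraries and depth, and choosing genes over the same libraries fixes that their levels follow those of Ptgs2.

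The start regions of most members, like promoters at large, held little 5-methylcytosine (5mC), measured by oxidative bisulfite sequencing as the percentage of reads that kept C. From 1000 bp before to 500 bp after the transcript start, a depth of 10 or more reads in each library was reached by cytosines of 8 members, and by none of Pla2g4a and Ptger2. Group means were at most 2.27% in 7 of the 8. The median over all promoters was 0.762% at 4 weeks and 0.423% at 12 weeks. Ptgs2, Ptgis and Hpgd lay above that median in both limbs and weeks. Ptgs2 had 19 such cytosines, lying at -503 to -119 from the start, with 3.09, 1.28 and 1.85% in 4-week controls and 1.75, 0.765 and 1.37% in DMM. The 12-week values were 1.75, 1.93 and 2.31% in controls and 1.51, 1.52 and 1.40% in DMM, which did not overlap. The difference was -0.52 percentage points (two-sided exact permutation test, p = 0.1, the smallest possible). Each value rests on 523 to 3587 reads at 4 weeks and 779 to 2246 at 12 weeks, and intervals of these reads would cover counting error only. Ptges2 at 4 weeks (0.654% in controls and 0.363% in DMM) and Hpgd at 12 weeks (2.27% and 1.40%) did not overlap either, with DMM lower and exact permutation p = 0.1 each. The Ptges2 difference was -0.291 points, and -0.169 without DMM replicate 2. That replicate had the lowest Ptges2 value, 0.118%. Its median coverage of 22 reads was also the lowest of the 4-week oxBS libraries, where the others had 38 to 102. For Hpgd it was -0.878 points, and -0.372 without control replicate 2. Of all promoters 9.56% at 4 weeks and 15% at 12 weeks did not overlap between limbs.

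Ptges was the exception among the members with a value, with a partly methylated window. It had 16.8, 7.32 and 13.6% 5mC in 4-week controls and 10.1, 4.47 and 7.97% in DMM, and 17.6, 17.4 and 10.6% against 10.5, 16.1 and 10.9% at 12 weeks, with overlap in both weeks. At 4 weeks many of the higher values lay well inside the transcript. In 4-week controls the cytosine 362 bases after the start had 39.1, 12.7 and 39.4%. The cytosine at 42 bases had 0, 0.741 and 0%, and that 8 bases before the start 12.2, 10.4 and 9.76%. A logistic model with overdispersion called no member promoter at either time point, nor any other, which is 0% of 13527 promoters at 4 weeks and 0% of 13371 at 12 weeks. At an unadjusted p under 0.05 it had 122 and 682 promoters, and limma on unweighted means called 0 and 1 promoters, no member among them. With reads taken as independent, the model called 1299 promoters (9.72%) at 12 weeks, 1148 of them lower in DMM and 151 higher. Ptges was among the lower ones (-2.69 points, q = 0.0379). That difference was -1.48 points without control replicate 1, -1.58 without control replicate 2, -1.69 without DMM replicate 1, -4.47 without DMM replicate 2 and -5.00 without control replicate 3, and the model with overdispersion called none of these.

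Beyond the start regions, gene bodies ranged from nearly unmethylated in Ptger2 (0.844% to 1.42% as group means) to 71.8% in Ptgs1. The Ptges body, more than 500 bp inside the start, had 62.5, 52.6 and 53.7% 5mC in 4-week controls and 48.9, 46.5 and 45.8% in DMM. The 12-week values were 56.0, 58.6 and 58.5% in controls and 54.8, 51.8 and 50.1% in DMM. The limbs did not overlap in either week, with differences of -9.21 and -5.48 points and p = 0.1 in each, the smallest the exact permutation test allows. Of all gene bodies 7.97% at 4 weeks and 21.9% at 12 weeks did not overlap. This window holds 13 cytosines at 4 weeks and 12 at 12 weeks, and the model called 0 gene bodies of 13006 and 12788, with 176 and 1830 at an unadjusted p under 0.05. The Pla2g4a body had 66.3, 64.6 and 64.9% in 4-week controls and 61.2, 61.8 and 60.8% in DMM (-4.02 points, exact p = 0.1), and overlapped at 12 weeks. Ptgs2 and Hpgd had no gene body value at either time point.

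**Figure D5:**
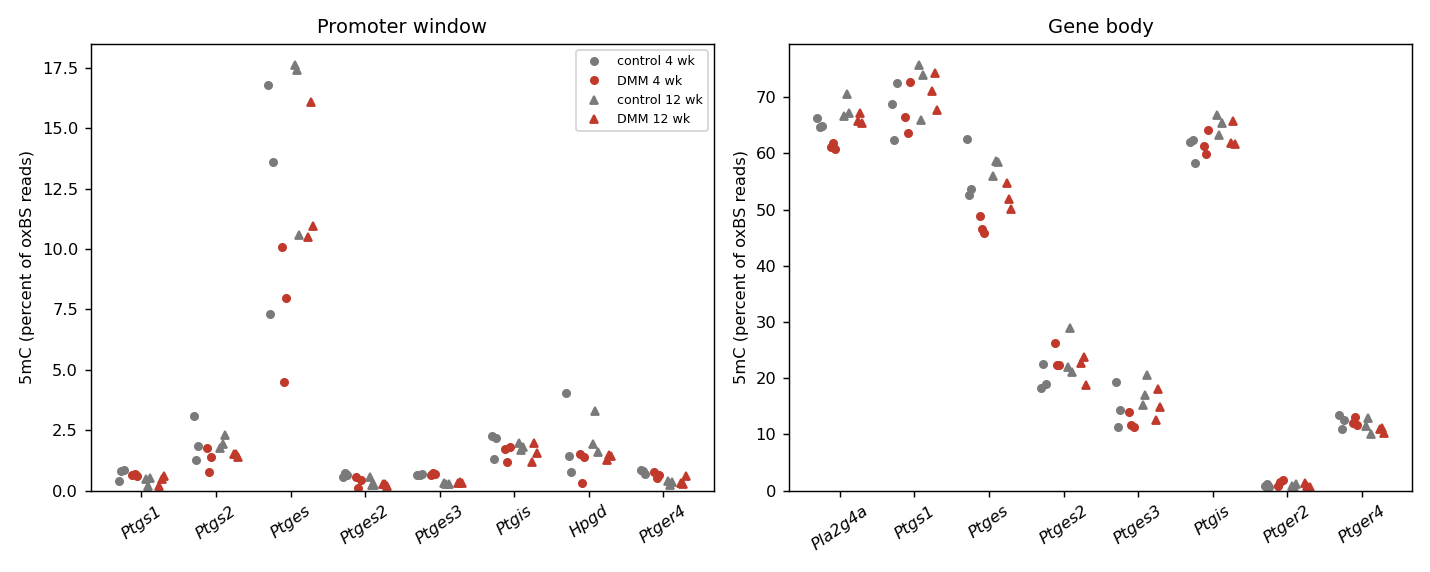
5mC of each gene in each oxBS library, as percent of reads, in the promoter window (left) and the gene body (right), control in grey, DMM in red, 4 weeks as circles and 12 weeks as triangles. Ptges stands above the other promoters, and its gene body is lower in DMM in both weeks.

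Promoter 5-hydroxymethylcytosine, the BS minus the oxBS percentage, was near 0. Group means lay between -0.475 and 0.553 percentage points outside Ptges, where they were 2.22 and 2.04 points in 4-week control and DMM samples and 1.37 and 1.91 points at 12 weeks. The limbs of Ptgs1 and of Ptger4 did not overlap at 4 weeks (-0.368 and 0.413 points, exact permutation p = 0.1 each), as 9.78% of all promoters did not, and all 8 members overlapped at 12 weeks, where 9.93% of promoters did not. The BS file of 12-week DMM replicate 1 carries the name of replicate 2, and its median coverage was 24 reads against 72 in the oxBS library of that replicate, so the subtraction may join unlike samples there. Without that replicate, a choice made after seeing the data, the 12-week DMM mean of Ptges was 0.039 points in place of 1.91, and all 8 members still overlapped. These are differences between values near 0, with control means of 0.318 points for Ptgs1 and 0.00888 points for Ptger4.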

How the data were processed

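RNA-seq counts and RRoxBS cytosine tables of control and DMM cartilage were analysed, grouped by the labels. The authors trimmed RNA reads with FLEXBAR, aligned them to mm10 with STAR, and deposited raw featureCounts counts per RefSeq transcript. The methods name SMART-Seq v4 and Nextera XT, the labels poly(A) libraries. For DNA the authors deposited coverage counts per cytosine, at least 10, and the percent of reads with C and with T, per the files. Members and gene lists were chosen with earlier results of these data known. The named genes are all 10 members, the 4 other pathway genes with the smallest p in each limb comparison, and the 8 genes most like Ptgs2, of which 1 is not reported here.

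Counts were tested with edgeR 4.0.16 (R 4.3.3, quasi-likelihood, TMM, Benjamini-Hochberg adjusted p under 0.05 over all transcripts). The SE of an edgeR log2 difference was derived as its absolute value divided by the square root of the test's F statistic. DESeq2 1.42.0 was the main alternative. Promoters (1000 bp upstream to 500 bp downstream) were tested with a logistic model with Pearson overdispersion, and single values by exact permutation (scipy 1.17.1). Libraries of a group differed beyond counting error. Pools share limbs of the same mice, and p-values measure spread between pools. Positions were checked against GRCm38, and 289 of 289 member cytosines fell on a CpG. Gene bodies were added after the promoter windows. Sequences are from RefSeq GRCm38.p6, where Ptgis had no promoter entry.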

Additional observations from a re-analysis of the deposited data

How the results depend on the processing

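The Ptgs2 to Ptgs1 ratio, the 12-week Ptgs2 difference and the 3 calls between time points in DMM knees kept their direction in all alternatives run. DESeq2 raised the members called from 0 to 1 at 4 weeks (Ptgs2) and from 0 to 1 between time points in controls (Ptger2), and the promoter model without overdispersion raised them from 0 to 1 at 12 weeks (Ptges). The replicate block called 0 members at 4 weeks and 1 at 12 weeks (Ptgs2, adjusted p = 0.0582 and 0.023 by edgeR) and gave the ratio of Ptgs2 to Ptgs1 p = 0.0312 by exact sign flips, the smallest possible. Over all transcripts it called 354 at 4 and 734 at 12 weeks, against 16 and 1. Deviations of same-numbered libraries from their group means had correlations of -0.63 to 0.46. With 3 libraries per group these cannot show whether the numbers mark pairs. The main fit left the numbers out because the paper does not use them. Median-of-ratios factors, no filter, at least 10 counts, 1 transcript per gene, all libraries in 1 fit, a coverage of at least 20, a window of 500 bp either side and unweighted means with limma changed no count of members called. Over all transcripts edgeR called 0 to 35 under these settings at 4 weeks, 0 with at least 10 counts or 1 transcript per gene, and 1 to 56 at 12 weeks, 56 without a filter. DESeq2 called 747 and 866, and 3001 between time points in controls against 1229. Without overdispersion the promoter model called 190 at 4 and 1299 at 12 weeks. The cause of the changes was not tested.

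Leaving out each library gave 0 to 1 members called at 12 weeks, 0 to 2 between time points in controls and 0 to 4 in DMM, and a log2 ratio difference of 1.57 to 1.72. Signs changed only for differences that were not called. Under the block Ptger2 went to 0.0475 at 4 weeks, under at least 10 counts the interaction of Ptges3 went to 6.44e-05, and at a coverage of 20 the promoter difference of Ptgs1 went to 0.0331 points at 4 weeks and that of Ptges3 to -0.019 at 12 weeks. Without single libraries the log2 difference ranged over -0.414 to 0.0538 (Ptges), -0.0498 to 0.0923 (Ptges3) and -0.316 to 0.335 (Ptger2) at 4 weeks, -0.0538 to 0.137 (Ptgs1) and -0.0979 to 0.171 (Ptges3) at 12 weeks, -0.132 to 0.162 (Ptges3) and -0.676 to 0.0222 (Ptger2) for the interaction, and -0.105 to 0.256 (Pla2g4a, controls) and -0.068 to 0.351 (Ptgis, DMM) between time points. Promoter differences ranged over -0.199 to 0.0287 points for Ptgs1 at 4 weeks, and -0.0621 to 0.16 (Ptgs1), -0.145 to 0.0173 (Ptges2) and -0.0172 to 0.146 (Ptger4) at 12 weeks. Promoters with few reads limit the 5mC values, and with 3 libraries per group a single permutation test cannot go below p = 0.1.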
